A study of Arabidopsis thaliana with 18 samples.

Results

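The 161 Arabidopsis thaliana genes described here were higher in rosettes of both C24 lines that carry a NahG transgene than in C24 rosettes without it. NahG encodes a bacterial salicylate hydroxylase. Levels are given in CPM, read counts scaled to 1000000 reads in genes per library and not corrected for gene length. A gene was taken when its lowest C24 NahG library was at least 1.5 times the higher of the C24B libraries and its mean over the 4 C24 NahG libraries was at least 2 CPM. Of 37336 gene rows, 16695 had such a mean and 166 (0.994%) also met the ratio. The rule leaves out 6 named genes, 5 of which met both thresholds, and 161 members remained. The C24 NahG and C24B levels therefore chose the members, and the difference between them is given as a description with no test. The levels in the other groups did not enter the choice.

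All libraries came from rosettes 21 days after sowing, grown at 21 °C with 16 h light and 8 h dark and moved to soil at day 14. C24 NahG 3 and C24 NahG 2 are independent transgenic lines of the C24 accession with 2 libraries each, and C24B is wild-type C24 with 2 libraries. These 6 were sequenced later than the other 12 and form the later stage. The first stage holds the hybrid C24 x Ler, wild-type C24, Ler NahG (the NahG transgene in Ler-0) and wild-type Ler-0, with 3 libraries each. Each library was a pool of 6 to 10 plants, so p-values measure the spread between pools. The promoter that drives NahG is not given in the sources used here, nor are the number of insertions or the parent that served as mother of the hybrid.

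Salicylic acid is a defence hormone made in chloroplasts mainly through isochorismate, and its removal by NahG lowers the expression of PR1, a standard marker of salicylic acid signalling. Jasmonate is a second defence hormone whose responses are often opposed to those of salicylic acid in leaves. Many brassicas also hold glucosinolates, sulfur-rich compounds that beta-glucosidases break down when tissue is damaged, and ER bodies, compartments of the endoplasmic reticulum that store such beta-glucosidases.

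PR1 followed the NahG labels in both stages. Its level was 0.314 and 0.380 CPM in line 3 and 0.524 and 0.432 CPM in line 2, against 996 and 745 CPM in C24B. In Ler NahG its level was 0.994, 1.06 and 1.86 CPM, against 27.3, 7.0 and 3.61 CPM in Ler, so the groups did not overlap in either accession. Depth was 28132721 to 32465711 reads in genes per later-stage library and 22446656 to 25706088 per first-stage library, and 3 reads equal 0.0924 to 0.107 CPM and 0.117 to 0.134 CPM in these stages. The leaf identity markers were high throughout, with a summed level of 6 mesophyll genes between 24030 and 38260 CPM. In bulk tissue, fewer cells of a type and less RNA per cell cannot be told apart.

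C24B replicate 1 stood apart from C24B replicate 2 for genes of young tissue. STM, a homeobox gene of the shoot apex and not a member, had 23.1 and 41.0 CPM in line 3 and 28.0 and 24.1 CPM in line 2, against 0.427 and 22.1 CPM in C24B. The sum of 10 genes of dividing young tissue was 368 and 435 CPM in line 3 and 344 and 424 CPM in line 2, against 176 and 305 CPM in C24B, with no overlap. The sum of 10 shoot apex genes did overlap, with 101.6 and 148.9 CPM in line 3 and 122.3 and 111.6 CPM in line 2, against 49.69 and 102.2 CPM in C24B. None of the marker genes of 5 tissues is a member. C24B replicate 2 was above replicate 1 for 138 of the 161 members (68.6% of all 16695 genes) and at least 2 times it for 38 members (5.79% of all genes). The part of young tissue in the choice of the members was not tested. Because the rule compares with the higher C24B library, 222 genes met it without C24B replicate 1 and 2101 without C24B replicate 2.

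The median ratio of the lowest C24 NahG library to the higher C24B library was 1.69 over the members, 30 of them were at 2 or more and 6 at 3 or more. The median fold of the C24 NahG mean over the C24B mean was 2.49, between 1.67 and 9.18. Mean levels ran from 2.04 to 3041 CPM with a median of 14.0, and 68 members lay under 10 CPM. Just inside the ratio of 1.5 were AT3G61920 (1.5), AT2G29500, a small heat shock protein (1.501), and FLA10 and AT2G47670 (1.502 each). Just outside it were MES10, a methylesterase (1.498), AT1G56210 (1.496) and AT3G57600 (1.496). The members lie on all 5 chromosomes, 158 code for proteins, and 16 of them form 8 pairs of neighbouring genes. The map of all members by library shows the C24 NahG columns above C24B in every row, which the rule fixes, and a mixed pattern in the first-stage columns, which it does not.

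**Figure D1:**
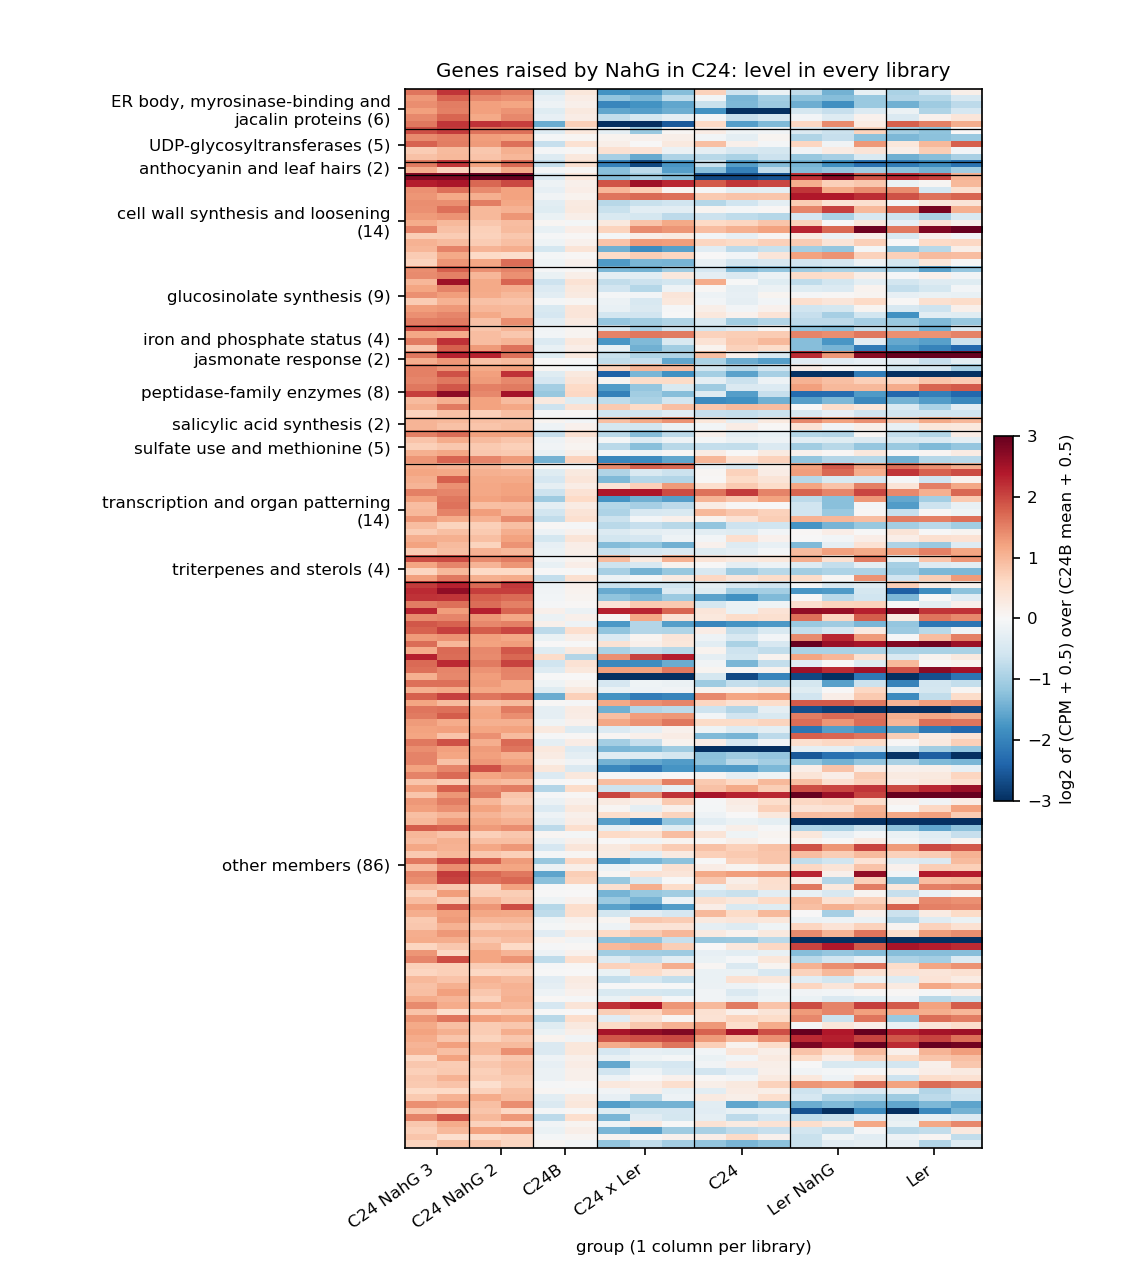
Each row is 1 of the 161 members, grouped by role with the number of members in brackets, and each column is 1 library of the group named below; colour is log2 of (CPM + 0.5) over (C24B mean + 0.5), limited to 3 in both directions. The 4 C24 NahG columns are red in every row, while the hybrid, C24, Ler NahG and Ler columns are red in some rows and blue in others.

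The ER body and lectin genes included BGLU18, the member with the highest mean C24 NahG level, and had ratios of 1.84 to 2.31. BGLU18 encodes the beta-glucosidase of leaf ER bodies and had 2679 and 3698 CPM in line 3 and 2951 and 2838 CPM in line 2, against 919 and 1264 CPM in C24B. Its neighbour on chromosome 1, TSA1, encodes an ER body protein and had 556 and 611 CPM in line 3 and 498 and 478 CPM in line 2, against 189 and 234 CPM in C24B. JAL23, a jacalin-related lectin, had 272 and 394 CPM in line 3 and 290 and 263 CPM in line 2, against 64.5 and 114 CPM in C24B. The C24 NahG values of these genes were more than 2 times the higher C24B library, with similar levels in both lines. JR1, a jasmonate-responsive lectin, had 570 and 703 CPM in line 3 and 464 and 564 CPM in line 2, against 176 and 242 CPM in C24B. The myrosinase-binding protein genes MBP1 and MBP2 are neighbours. MBP1 had 162 and 197 CPM in line 3 and 161 and 175 CPM in line 2, against 52.9 and 83.8 CPM in C24B. MBP2 had 47.6 and 69.8 CPM in line 3 and 71.7 and 66.8 CPM in line 2, against 5.15 and 25.8 CPM in C24B, so its C24B libraries differed more from each other than those of the other genes of the group.

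In the first stage these genes differed in how they stood against C24B. BGLU18 had 479, 424 and 646 CPM in the hybrid, 1028, 422 and 534 CPM in C24, 468, 448 and 507 CPM in Ler NahG and 597, 600 and 786 CPM in Ler. All Ler NahG libraries thus lay below all Ler libraries, the opposite order to the one that the rule fixed in C24, and the difference in Ler did not pass the test (edgeR log2 difference -0.41, SE 0.27, adjusted p = 0.75). JAL23 had 25.4, 26.5 and 36.5 CPM in the hybrid, 144, 58.0 and 79.0 CPM in C24 and 46.1, 60.1 and 101 CPM in Ler. It was lower in the hybrid than the mid-parent, which is the mean of the parents' fitted log2 levels (-1.21, SE 0.33, adjusted p = 0.018), and the call was lost without C24 x Ler replicate 1 (adjusted p = 0.08) or 2 (adjusted p = 0.072). MBP2 had 0.841, 1.14 and 2.3 CPM in the hybrid, 23.7, 4.55 and 5.83 CPM in C24, 24.1, 41.9 and 18.4 CPM in Ler NahG and 55.0, 44.9 and 33.2 CPM in Ler. It was lower in the hybrid than the mid-parent (-3.75, SE 0.65, adjusted p = 0.0023). MBP1 had 19.0, 2.32 and 8.25 CPM in C24, against 60.3, 36.1 and 47.7 CPM in Ler, and was lower in C24 (-2.31, SE 0.50, adjusted p = 0.0028). C24 replicate 1 was the highest C24 library for all 4 of these genes.

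**Figure D2:**
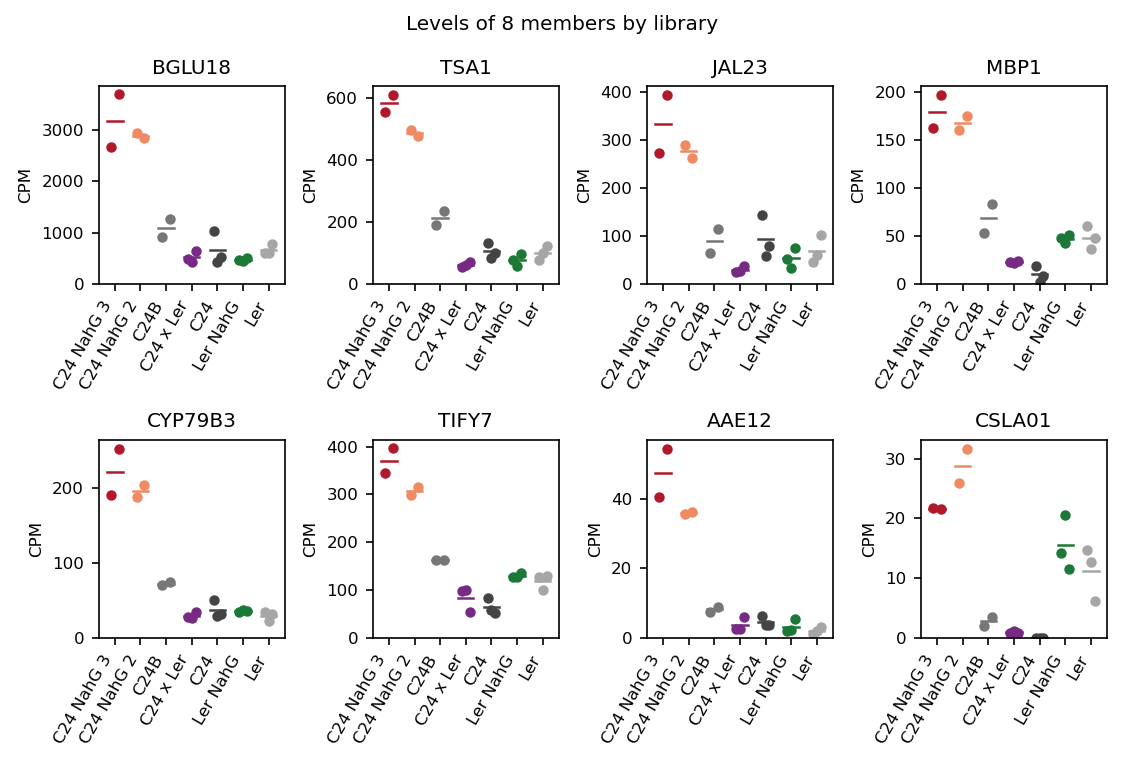
Level in CPM (y axis, linear, from 0) of 8 members in every library, with the groups along the x axis; points are libraries and lines are group means. BGLU18 lies between 2679 and 3698 CPM in the C24 NahG libraries and at or below 1264 CPM in all other libraries, while CSLA01 is at 21.6 to 31.6 CPM in C24 NahG, 11.6 to 20.6 CPM in Ler NahG, and near 0 in first-stage C24.

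Glucosinolate synthesis supplied 9 members. The pathway lists named fixed here and below were chosen with earlier results of these data known, so shares on them are a description only. On these lists, 5 of 29 aliphatic genes and 3 of 12 indole genes with at least 2 CPM were members. Of all genes, 0.994% met the thresholds. The glucosinolate breakdown list had 0 members among 8 such genes. Photosynthesis (25 genes), phosphate and nitrate use (13), cold and abscisic acid (12) and auxin (12) also had 0. The same held for clock (11), cuticle (11), lipid transfer (8) and heat (2) lists. These lists do not hold every gene of a function: the phosphatase gene PAP3 and the small heat shock gene AT2G29500 are members outside them. Genes that the rule leaves out do not count as members, and 5 of these 6 genes met both thresholds. A count of 0, that of the lipid transfer list included, therefore does not show that no gene of the list met them. CYP79B3 makes indole-3-acetaldoxime, the precursor of indole glucosinolates, and had 191 and 252 CPM in line 3 and 188 and 204 CPM in line 2, against 70.2 and 74.4 CPM in C24B. MYB34, a regulator of indole glucosinolate genes, had 39.5 and 41.8 CPM in line 3 and 29.4 and 38.0 CPM in line 2, against 12.6 and 16.3 CPM in C24B. IGMT5 and CYP81F4 act in the modification of indole glucosinolates, and IGMT5 had 227 and 229 CPM in line 3 and 143 and 204 CPM in line 2, against 62.0 and 93.9 CPM in C24B. CYP81F4 was far lower, with 1.46 and 5.29 CPM in line 3 and 1.66 and 2.83 CPM in line 2, against 0.142 and 0.836 CPM in C24B, and had too few reads for a test in the first stage.

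On the aliphatic side, BCAT4 catalyses the first step of methionine chain elongation and had 1298 and 1347 CPM in line 3 and 1081 and 1077 CPM in line 2, against 394 and 696 CPM in C24B. The regulators MYB29 and MYB76 are neighbours. MYB29 had 103 and 110 CPM in line 3 and 87.0 and 78.5 CPM in line 2, against 27.9 and 51.3 CPM in C24B. MYB76 had 17.9 and 16.4 CPM in line 3 and 15 and 13.3 CPM in line 2, against 5.19 and 8.01 CPM in C24B. SOT18, a sulfotransferase of the last step of core synthesis, and FMO GS-OX1, which oxidises the side chain, had ratios of 1.64 and 1.69 and C24 NahG means of 213 and 195 CPM.

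In first-stage C24, 8 of the 9 glucosinolate members lay below every C24 NahG library (33.2% of all 16695 genes do), and since the rule asked for high C24 NahG values, nothing is read from that share. In Ler NahG against Ler, 0 of the 8 that could be tested passed the test (0.0886% of all genes passed as higher and 0.502% as lower), and 4 of the 9 had all Ler NahG libraries above all Ler libraries (3.01% of all genes do). CYP79B3 had 34.5, 37.0 and 35.8 CPM in Ler NahG, against 34.4, 22.9 and 32.1 CPM in Ler (edgeR log2 difference 0.32, SE 0.22, adjusted p = 0.77). MYB34 had 21.2, 20.9 and 16.2 CPM in Ler NahG, against 14.1, 16.1 and 13.4 CPM in Ler (0.49, SE 0.17, adjusted p = 0.43). MYB76 and IGMT5 were the other two. Over the whole fixed lists, 0 of 30 aliphatic and 0 of 12 indole genes passed in either direction in Ler NahG (18 higher and 102 lower of all 20325 genes tested). MYB29 was higher in C24 than in Ler, with 49.5, 43.2 and 52.6 CPM in C24, against 10.9, 31.5 and 30.7 CPM in Ler (1.01, SE 0.28, adjusted p = 0.011).

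Sulfate use was represented by 5 members, 2 of them among the 18 sulfur genes of the fixed list with at least 2 CPM. SULTR2;1, a sulfate transporter of vascular tissue, had 345 and 366 CPM in line 3 and 362 and 345 CPM in line 2, against 196 and 223 CPM in C24B. APK encodes the kinase that supplies activated sulfate for sulfation, and had 317 and 340 CPM in line 3 and 266 and 260 CPM in line 2, against 131 and 172 CPM in C24B. HMT3, a homocysteine methyltransferase that makes methionine, had 149 and 166 CPM in line 3 and 120 and 120 CPM in line 2, against 31.7 and 71.7 CPM in C24B. The ratios of the 5 ran from 1.51 to 1.67, near the threshold. SULTR3;2, a member of the sulfate transporter family, had 0.929, 1.01 and 1.39 CPM in the hybrid, 10.7, 7.20 and 8.60 CPM in C24 and 1.55, 2.58 and 2.68 CPM in Ler. All hybrid libraries lay below all parental ones, and the gene was lower in the hybrid than the mid-parent (-1.77, SE 0.22, adjusted p = 0.00027) and than C24 (-2.76, SE 0.23, adjusted p = 9.1e-06).

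The members also held jasmonate and salicylate genes. Of 28 jasmonate genes of the fixed list with at least 2 CPM, 3 (10.7%) were members, namely TIFY7, THI2.1 and JR1, beside the 0.994% of all genes that met the thresholds. Genes that the rule leaves out are not counted among the members here either. TIFY7, also known as JAZ9, encodes a repressor of jasmonate signalling and had 344 and 396 CPM in line 3 and 299 and 314 CPM in line 2, against 162 and 162 CPM in C24B. In the first stage it had 84.2, 57.6 and 51.1 CPM in C24, against 127, 99.6 and 130 CPM in Ler, and was lower in C24 (-0.89, SE 0.25, adjusted p = 0.012), a call lost without C24 replicate 3 (adjusted p = 0.055). ICS2, the lesser-expressed isochorismate synthase gene, had 5.33 and 5.07 CPM in line 3 and 4.80 and 4.75 CPM in line 2, against 2.52 and 2.19 CPM in C24B. Its hybrid libraries had 4.87, 5.83 and 6.73 CPM, against 3.12, 1.87 and 3.00 CPM in C24 and 4.53, 5.80 and 5.23 CPM in Ler, and it was higher in the hybrid than the mid-parent (0.88, SE 0.15, adjusted p = 0.0023). EPS1, which acts in salicylic acid synthesis after the isochorismate step, had 14.4 and 13.2 CPM in line 3 and 12.7 and 13.3 CPM in line 2, against 6.22 and 7.62 CPM in C24B.

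THI2.1, a thionin gene used as a marker of jasmonate responses, ran in opposite directions in the accessions. It had 2.51 and 4.53 CPM in line 3 and 4.50 and 2.69 CPM in line 2, against 0.284 and 0.740 CPM in C24B. In Ler it had 4.27, 1.99 and 6.11 CPM in Ler NahG, against 16.9, 35 and 16.6 CPM in Ler, and was lower in Ler NahG (edgeR log2 difference -2.41, SE 0.45, adjusted p = 0.037). The groups did not overlap in either accession, but the rule fixed this in C24, so only the order in Ler is an observation. The difference between the accessions was not tested. The Ler call was lost without Ler replicate 2 (adjusted p = 0.14) or Ler NahG replicate 1 (adjusted p = 0.18), 2 (adjusted p = 0.11) or 3 (adjusted p = 0.059), and when the spread was taken from Ler NahG and Ler alone (adjusted p = 0.23). The hybrid had 0.133, 0.0438 and 0.0434 CPM, which is 5 reads in all, against 1.38, 0.610 and 0.233 CPM in C24 and the Ler values above, and lay below the mid-parent (-5.48, SE 0.79, adjusted p = 0.0008).

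Cell wall genes formed the joint largest role group, with 14 members, and held the largest ratio. CSLA01, of the mannan synthase family, had 21.7 and 21.6 CPM in line 3 and 25.9 and 31.6 CPM in line 2, against 1.96 and 3.54 CPM in C24B, a ratio of 6.12. In the first stage it had 0.841, 1.1 and 0.825 CPM in the hybrid, 0, 0 and 0.0389 CPM in C24, 14.2, 20.6 and 11.6 CPM in Ler NahG and 14.7, 12.6 and 6.20 CPM in Ler. The C24 total was 1 read, against 777 in Ler, a ratio of 0.00122 (exact 95% interval 3.1e-05 to 0.00684, counting error only). The hybrid held 63 reads and was 66.9 times C24 (interval 11.6 to 2690), and C24B, the later-stage wild-type C24, held 165 reads in 2 libraries. CSLA01 was thus at or near 0 reads in wild-type C24 of the first stage and detected in both wild-type libraries of the later one, and stage and group cannot be told apart.

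XTH17, a xyloglucan-modifying enzyme gene, had 6.42 and 6.91 CPM in line 3 and 3.94 and 4.82 CPM in line 2, against 0.711 and 0.997 CPM in C24B. First-stage C24 had 4.32, 5.45 and 4.90 CPM, within the C24 NahG range, and the hybrid had 4.51, 7.36 and 6.03 CPM, against 0.690, 0.902 and 2.15 CPM in Ler. It was higher in C24 than in Ler (1.98, SE 0.32, adjusted p = 0.00041) and higher in the hybrid than the mid-parent (1.51, SE 0.25, adjusted p = 0.002). EXP3, an expansin gene, had 82.1 and 74.0 CPM in line 3 and 65.8 and 72.1 CPM in line 2, against 38.9 and 36.3 CPM in C24B, and first-stage C24 had 57.0, 59.4 and 67.1 CPM. CSLC5, of the xyloglucan backbone synthase family, was higher in the hybrid (43.7, 52.7 and 55.2 CPM, against 43.2, 38.2 and 47.8 CPM in C24 and 32.9, 51.1 and 43.1 CPM in Ler) than the mid-parent (0.48, SE 0.11, adjusted p = 0.0099), although the groups overlapped. FLA10, a fasciclin-like arabinogalactan protein gene, was lower in the hybrid, with 1.46, 1.97 and 1.91 CPM, against 4.99, 3.82 and 4.05 CPM in C24 and 3.88, 7.60 and 5.81 CPM in Ler (-1.24, SE 0.20, adjusted p = 0.0017). Of the 14 cell wall members, 5 were higher and 3 lower in the hybrid than the mid-parent (15.5% and 11.5% of all genes tested). The fixed lists hold 2 members among 16 wall loosening genes with at least 2 CPM, EXP3 and XTH17, and 1 among 9 CSLA genes.

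The other group of 14 members held transcription factors and organ patterning genes, most of them low, with ratios of 1.54 to 2.03. AFO (FILAMENTOUS FLOWER), a YABBY factor of the lower leaf side, had 25.2 and 27.8 CPM in line 3 and 25.6 and 31.6 CPM in line 2, against 13.1 and 16.1 CPM in C24B. GRF7, a growth-regulating factor, had 3.35 and 2.85 CPM in line 3 and 2.68 and 3.62 CPM in line 2, against 0.426 and 1.67 CPM in C24B. ERL1, a receptor kinase of the ERECTA family that acts in stomatal patterning, had 8.89 and 9.79 CPM in line 3 and 10.9 and 10.5 CPM in line 2, against 4.3 and 5.79 CPM in C24B. In the hybrid 7 of the 14 fell below the mid-parent (11.5% of all genes tested) and 2 lay above it (15.5%). ERL1 had 3.01, 3.51 and 3.69 CPM in the hybrid, 3.83, 4.11 and 4.86 CPM in C24 and 12.7, 15.4 and 12.2 CPM in Ler (-0.92, SE 0.13, adjusted p = 0.00062). PAN, a bZIP factor of meristems and flowers, had 0.177, 0.438 and 0.434 CPM in the hybrid, 1.25, 2.03 and 1.75 CPM in C24 and 1.16, 0.644 and 1.36 CPM in Ler (-1.69, SE 0.37, adjusted p = 0.0073). GRF7 was also lower in the hybrid than the mid-parent (-1.30, SE 0.26, adjusted p = 0.0046).

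The 2 that rose in the hybrid were BEE1 and GIS. BEE1, a bHLH factor induced by brassinosteroid, had 36, 36 and 25.9 CPM in the hybrid, 20.6, 28.5 and 18.6 CPM in C24 and 17.9, 13.7 and 21.9 CPM in Ler (0.94, SE 0.18, adjusted p = 0.0042). GIS, a zinc finger factor of leaf hair formation, had 3.36, 4.43 and 4.21 CPM in the hybrid, 0.802, 0.569 and 1.13 CPM in C24 and 4.01, 3.22 and 2.55 CPM in Ler (1.5, SE 0.25, adjusted p = 0.0019). In the later stage BEE1 had 18.8 and 18.4 CPM in line 3 and 14.7 and 15.3 CPM in line 2, against 3.95 and 8.68 CPM in C24B, so the C24B libraries lay below all first-stage libraries.

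Genes of mineral nutrition, anthocyanins and triterpenes made smaller groups. AT1G47400 and AT1G47395 are neighbours that encode IRON MAN peptides, which act in the iron deficiency response. AT1G47400 had 6.10 and 6.37 CPM in line 3 and 2.53 and 2.99 CPM in line 2, against 1.1 and 1.32 CPM in C24B, the smallest unadjusted p of the members between the lines (0.0013, adjusted p = 1). PAP3, a purple acid phosphatase gene, had 61.9, 66.1 and 65.0 CPM in the hybrid, 35.7, 36.4 and 37.1 CPM in C24 and 56.6, 56.3 and 61.7 CPM in Ler. All hybrid libraries were above all parental ones, and it was higher than C24 (1.06, SE 0.07, adjusted p = 1.4e-06) and than Ler (0.37, SE 0.07, adjusted p = 0.0019). Of 16 flavonoid genes of the fixed list with at least 2 CPM, 2 were members, and both are known in anthocyanin or leaf hair formation. UF3GT, an anthocyanin glycosyltransferase gene, had 23.2 and 34.8 CPM in line 3 and 18 and 25.9 CPM in line 2, against 4.37 and 10.6 CPM in C24B. GL3, a bHLH factor, had 6.31 and 4.56 CPM in line 3 and 4.93 and 6.58 CPM in line 2, against 2.56 and 2.83 CPM in C24B. LUP1, which makes the triterpene lupeol, had 46.2 and 47.2 CPM in line 3 and 32.3 and 34.9 CPM in line 2, against 10.8 and 12.6 CPM in C24B.

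Of the 8 members of peptidase families, 6 were higher and 1 lower in the hybrid than the mid-parent (15.5% and 11.5% of all genes tested). SCPL9, a serine carboxypeptidase-like gene, had 32.2, 40.5 and 38.2 CPM in the hybrid, 13.5, 11.0 and 13.2 CPM in C24 and 13.5, 14.2 and 9.85 CPM in Ler (1.78, SE 0.13, adjusted p = 7e-06). It also had 23.6, 20.5 and 19.1 CPM in Ler NahG, above all Ler libraries, and missed the threshold there (0.81, SE 0.16, adjusted p = 0.053). In C24 NahG it had 57.7 and 51.3 CPM in line 3 and 44.6 and 46.5 CPM in line 2, against 20.6 and 19.3 CPM in C24B. The member called lower was AT4G11320, of the papain family of cysteine proteases, with 12.4, 18.1 and 29.8 CPM in the hybrid, 19.2, 30.2 and 30.5 CPM in C24 and 89.6, 140 and 149 CPM in Ler (-1.30, SE 0.24, adjusted p = 0.0036). AT5G19110 was not called (edgeR log2 difference 0.59, SE 0.41, adjusted p = 0.32).

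Several members outside these groups had large ratios. ST4B, a sulfotransferase gene, had a ratio of 5.13, with 3.21 and 3.80 CPM in line 3 and 2.31 and 3.29 CPM in line 2, against 0.284 and 0.450 CPM in C24B. AAE12, an acyl-activating enzyme gene, had 40.4 and 54.2 CPM in line 3 and 35.7 and 36.2 CPM in line 2, against 7.54 and 8.78 CPM in C24B, and stayed at or below 6.24 CPM in all first-stage libraries. 4CL8, of the same AMP-dependent synthetase and ligase superfamily, had 44.3 and 43.6 CPM in line 3 and 34.1 and 32.0 CPM in line 2, against 8.99 and 10.0 CPM in C24B. The 15 largest ratios also included those of XTH17, THI2.1, AT1G27030, AT2G22930 (a UDP-glycosyltransferase), LUP1, CYP79B3, ACS4, AT1G14390 (a leucine-rich repeat kinase), AT4G17470, AT4G29700 and WNK9, a protein kinase gene. ACS4 encodes an enzyme of ethylene synthesis and had 8.47 and 3.93 CPM in line 3 and 8.84 and 5.68 CPM in line 2, against 1.56 and 1.13 CPM in C24B. In the first stage it had 8.63, 8.5 and 5.73 CPM in the hybrid, 1.87, 1.1 and 1.95 CPM in C24 and 12, 7.60 and 7.74 CPM in Ler (hybrid above the mid-parent by 1.21, SE 0.23, adjusted p = 0.0042).

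AT4G11911, annotated as a STAY-GREEN-like protein of the family that acts in chlorophyll breakdown, had 25.4 and 26.1 CPM in line 3 and 18.5 and 24.6 CPM in line 2, against 6.50 and 9.52 CPM in C24B. Among the first-stage groups it had 2.65, 4.16 and 4.43 CPM in the hybrid, 4.99, 4.11 and 6.54 CPM in C24, 0.870, 0.706 and 0.266 CPM in Ler NahG and 0.388, 0.472 and 0.792 CPM in Ler. C24 and the hybrid thus lay above Ler without overlap, and C24 was higher than Ler (3.23, SE 0.38, adjusted p = 3e-05).

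The promoters of the members are described because their short sequences did not enter the choice of the genes. The 300 bases before the RefSeq start were read for 158 protein-coding members from the Columbia reference genome (TAIR10.1), which is neither C24 nor Ler. The G-box CACGTG, which bZIP and bHLH factors can bind, was in 25 of the 158 (15.8%), against 7.09% of all 27443 protein-coding promoters and 8.04% of the 16449 of genes with at least 2 CPM. AACGTG, or CACGTT on the other strand, was in 30 (19.0%), against 8.71% and 8.11%. The W-box core TTGAC, known from WRKY factors, was in 61 (38.6%), against 50.4% and 49.2%. Both strands were read, and TTGAC and TGACG can overlap by 4 letters. The others were TGACG in 30 members (19.0%, against 21.3% and 22.1%), CCGAC in 32 (20.3%, against 13.9% and 15.2%), GCCGCC in 1 (0.633%, against 2.26% and 2.40%) and AAAATATCT in 6 (3.80%, against 2.79% and 3.03%). Matches are letters in a window and not tested sites, and neighbouring members can share promoter sequence. Among the 30 members with a ratio of at least 2, CACGTG was in 6.67%, TTGAC in 50% and AACGTG in 26.7%, so the lower shares of TTGAC and the higher shares of CACGTG over all members were not seen in these 30.

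Promoters with and without these letters are printed 5′ to 3′ on the strand of the gene, with CACGTG and AACGTG in capitals and positions counted back from the gene start. MBP1 (chr1:19352792-19353091, minus strand) has AACGTG at −294 and CACGTG at −105, AT3G28220 (chr3:10523881-10524180, plus strand) has CACGTG at −118 and −31, DHAR1 (chr1:6774524-6774823, minus strand) has CACGTG at −31, and BGLU18 (chr1:19514689-19514988, plus strand) has neither.
MBP1: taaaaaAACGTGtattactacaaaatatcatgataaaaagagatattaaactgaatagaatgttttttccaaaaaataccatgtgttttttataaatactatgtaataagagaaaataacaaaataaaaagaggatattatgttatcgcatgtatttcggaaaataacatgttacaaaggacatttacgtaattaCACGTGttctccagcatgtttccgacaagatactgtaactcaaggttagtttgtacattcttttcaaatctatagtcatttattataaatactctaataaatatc
AT3G28220: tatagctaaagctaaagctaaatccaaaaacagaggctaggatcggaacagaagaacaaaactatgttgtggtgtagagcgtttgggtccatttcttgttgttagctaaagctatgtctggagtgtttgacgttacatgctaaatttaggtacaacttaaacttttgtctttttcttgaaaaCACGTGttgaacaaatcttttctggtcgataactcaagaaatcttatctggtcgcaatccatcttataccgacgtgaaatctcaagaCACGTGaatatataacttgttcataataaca
DHAR1: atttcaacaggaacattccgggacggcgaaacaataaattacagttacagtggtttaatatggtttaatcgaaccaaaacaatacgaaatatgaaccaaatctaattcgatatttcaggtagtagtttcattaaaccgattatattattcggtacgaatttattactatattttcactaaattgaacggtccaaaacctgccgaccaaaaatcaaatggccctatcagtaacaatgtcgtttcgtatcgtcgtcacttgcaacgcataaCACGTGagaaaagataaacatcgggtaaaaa
BGLU18: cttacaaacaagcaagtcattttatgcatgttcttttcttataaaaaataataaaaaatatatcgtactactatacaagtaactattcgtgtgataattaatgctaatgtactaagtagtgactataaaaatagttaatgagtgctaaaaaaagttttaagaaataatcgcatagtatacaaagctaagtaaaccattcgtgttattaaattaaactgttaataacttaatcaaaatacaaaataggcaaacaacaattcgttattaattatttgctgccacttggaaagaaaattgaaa

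DHAR1 encodes dehydroascorbate reductase, which recycles ascorbate, and had 886 and 1035 CPM in line 3 and 725 and 770 CPM in line 2, against 236 and 397 CPM in C24B. AT3G28220, a TRAF-like protein gene, had 287 and 255 CPM in line 3 and 264 and 334 CPM in line 2, against 136 and 82.0 CPM in C24B. In the first stage AT3G28220 had 41.6, 43.6 and 51.7 CPM in the hybrid, 8.60, 6.95 and 5.68 CPM in C24, 90.4, 90.5 and 72.8 CPM in Ler NahG and 75.1, 52.3 and 48.5 CPM in Ler. The hybrid lay above C24 (2.92, SE 0.24, adjusted p = 6.2e-06) and above the mid-parent (1.38, SE 0.18, adjusted p = 0.00044). All C24 libraries lay below all hybrid and all Ler libraries, while the hybrid and Ler ranges overlapped.

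Wild-type C24 of the first stage mostly had levels under those of C24 NahG. All its libraries lay below all C24 NahG libraries for 144 of 161 members (33.2% of all 16695 genes), and for 105 the lowest C24 NahG library was at least 1.5 times the highest first-stage C24 library (4.96% of all genes). The median ratio of the first-stage C24 mean to the C24B mean was 0.942. Set against C24B, all first-stage C24 libraries were lower for 41 members (23.6% of all genes) and higher for 34 (30.6% of all genes). For 6 members, the first-stage C24 mean reached the C24 NahG mean (44.4% of all genes). The rule asked for high values in the same C24 NahG libraries, so shares of members above those of all genes follow in part from the choice and nothing is read from them. Stage and group cannot be told apart in these comparisons either, and they carry no test.

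Between the lines, 0 of the 161 members passed the test (edgeR, 0 of 20112 genes at adjusted p under 0.05). At an unadjusted p under 0.05 there were 10 members and 590 genes, and DESeq2 called 13 genes, 0 of them members. The contrast between the lines did not choose the members, but the rule asked all 4 of these libraries to be high, which limits how far the lines can differ in them, so the count of 0 says nothing particular of the members. The median log2 difference of line 3 minus line 2 was 0.15, with 116 members above 0. All line 3 libraries were above all line 2 libraries for 61 members (18.8% of all genes), and the reverse held for 8 (16.7% of all genes).

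In Ler, the test called few genes between NahG and wild type, 120 of all 20325 genes and 4 of the members. Of 159 members tested, 3 (1.89%) were higher in Ler NahG than in Ler, against 0.0886% of all 20325 genes. THI2.1 alone (0.629%) was lower, against 0.502% of all genes. An unadjusted edgeR p under 0.05 was found for 34 of the 159 members and for 1647 of all 20325 genes. The median log2 difference of Ler NahG minus Ler was 0.15 for the members, with 107 above 0 and 52 below, and 0.00 over all genes, of which 50.6% were above 0. All Ler NahG libraries lay above all Ler libraries for 23 members (14.3%, against 3.01% of all genes) and below for 10 (6.21%, against 6.7% of all genes). The Ler NahG mean was above the Ler mean for 99 members (61.5%, against 34.4% of all genes). Orders and means here use CPM without TMM scaling, unlike the edgeR differences, of which 50.6% were above 0 over all genes. The ratio used in C24, applied to Ler, was met by AT5G47330 alone (0.0479% of all genes), and in the reverse direction by THI2.1 alone (0.377% of all genes).

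The 3 that rose were AT5G47330, AT5G62360 and AT1G27030. AT5G47330, an alpha/beta hydrolase gene, had 10.8, 10.5 and 9.48 CPM in Ler NahG, against 4.96, 3.39 and 3.87 CPM in Ler (1.38, SE 0.22, adjusted p = 0.015). In C24 it had 6.94 and 5.42 CPM in line 3 and 8.01 and 5.78 CPM in line 2, against 2.67 and 2.86 CPM in C24B. The call was lost without Ler replicate 3 (adjusted p = 0.059) or Ler NahG replicate 1 (adjusted p = 0.079) or 2 (adjusted p = 0.059). AT5G62360, of the pectin methylesterase inhibitor family, had 92.4, 91.2 and 80.7 CPM in Ler NahG, against 64.7, 53.9 and 58.1 CPM in Ler (0.64, SE 0.12, adjusted p = 0.029). Its call was lost without Ler replicate 2 (adjusted p = 0.1) or 3 (adjusted p = 0.12) or Ler NahG replicate 1 (adjusted p = 0.16) or 2 (adjusted p = 0.11). AT1G27030, an uncharacterised protein gene, had 32.4, 35.8 and 36.6 CPM in Ler NahG, against 22.2, 18.4 and 24.6 CPM in Ler (0.75, SE 0.14, adjusted p = 0.037). When a library was left out, this call was kept only without Ler replicate 1 (adjusted p = 0.039). It was lost without Ler replicate 2 (adjusted p = 0.11) or 3 (adjusted p = 0.076) and without Ler NahG replicate 1 (adjusted p = 0.11), 2 (adjusted p = 0.13) or 3 (adjusted p = 0.11). With the spread taken from Ler NahG and Ler alone, 0 members were called higher, and the adjusted p-values were 0.14, 0.43 and 0.23. In all 3 genes the groups did not overlap.

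**Figure D3:**
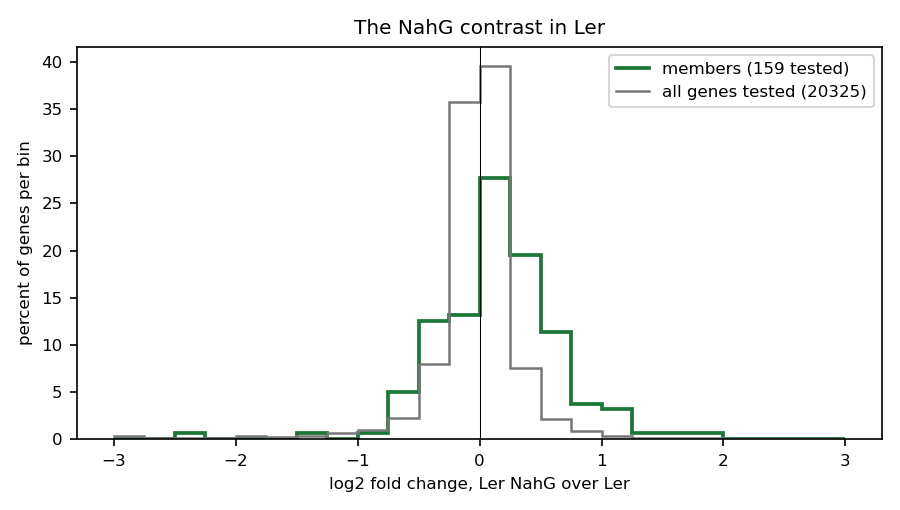
Percent of genes (y axis) by log2 difference of Ler NahG minus Ler (x axis, limited to 3 in both directions) for the 159 tested members and all 20325 tested genes. The members' median lies at 0.15 and that of all genes at 0.00, and 52 of the members lie below 0.

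Many members, like many of all genes, differed between the wild-type accessions. Of the 159 tested, 27 (17%) were higher in C24 than in Ler, against 22.6% of all genes. Another 55 (34.6%) were lower, against 19.8% of all genes, and the median log2 difference was -0.14. For 16 members, Ler and Ler NahG both averaged under 1 CPM (1.76% of all genes). The largest called differences above Ler, after AT3G45200 with 38 reads in C24 and 0 in Ler, were those of AT3G30875 (5.38, SE 0.39, adjusted p = 7e-07), SADHU3-1, named for a class of retroelements (3.6, SE 0.28, adjusted p = 1.1e-06), AT4G11911, AT1G47395 (3.12, SE 0.87, adjusted p = 0.012) and AT5G19100, an aspartyl protease gene (2.98, SE 0.44, adjusted p = 0.0002). SADHU3-1 had 11.6, 11.8 and 14.8 CPM in C24, against 0.948, 1.59 and 0.572 CPM in Ler. The largest below Ler were CSLA01, THI2.1 (-4.96, SE 0.54, adjusted p = 1.9e-05), AT3G14395 (-4.01, SE 0.26, adjusted p = 3.2e-07), AT3G28220 (-3.08, SE 0.24, adjusted p = 1.1e-06), BGAL7, a beta-galactosidase gene (-2.60, SE 0.50, adjusted p = 0.0013), and AT3G55290 (-2.51, SE 0.16, adjusted p = 3e-07). Sequence differences between accessions can change how many reads map to the reference, which was not tested. The sum of 8 floral genes was 92.94 to 142.8 CPM in Ler and 74.71 to 118.1 CPM in Ler NahG. It was 2.049 to 7.114 CPM in C24 and 4.071 to 5.522 CPM in the hybrid. The part of floral tissue in the differences from Ler and from the mid-parent was not tested.

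In the hybrid, 42 of the 159 members were above the mid-parent (15.5% of all genes) and 28 below it (11.5% of all genes), with a median log2 difference of 0.11. Where the parents differ, this mean of log2 levels lies below the mean of their CPM levels. A gene called above the mid-parent can therefore lie at or below the level of the higher parent. Without C24 x Ler replicate 1, and also without replicate 2, 17 were called below it. Against C24, 42 were higher and 23 lower (17.2% and 19.3% of all genes). Against Ler, 34 were higher and 37 lower (15.8% and 14.4% of all genes). All hybrid libraries lay above all parental libraries for 10 members (2.02% of all genes) and below all of them for 28 (17.9% of all genes). The hybrid mean lay under both parental means for 64 members (58% of all genes). These orders use CPM, without the TMM scaling of the edgeR values. By edgeR, the median log2 difference from the mid-parent over all genes was -0.012, with 48.4% above 0. The orders are therefore not read as a broad lowering in the hybrid.

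The largest called rises above the mid-parent were those of NUDT24, a nudix hydrolase gene (3.24, SE 0.37, adjusted p = 0.00017), AT2G29370 (2.42, SE 0.24, adjusted p = 7.4e-05), SADHU3-1 (2.03, SE 0.20, adjusted p = 7.4e-05), SCPL9, XTH17 and GIS. NUDT24 had 2.04, 3.51 and 4.47 CPM in the hybrid, 0.312, 0.163 and 0.545 CPM in C24 and 0.215, 0.558 and 0.704 CPM in Ler, so it was above both parents, while SADHU3-1 was at the C24 level in the hybrid, with 10.8, 11.2 and 16.0 CPM. The largest falls were those of THI2.1, ZFP3, AT2G19970, MBP2, AT3G59270 (-2.97, SE 0.62, adjusted p = 0.0057) and AT1G10980 (-2.55, SE 0.21, adjusted p = 1.6e-05). AT2G19970, a gene of the cysteine-rich secretory protein family, had 0.221, 0.0877 and 0.130 CPM in the hybrid, 6.28, 5.16 and 5.29 CPM in C24 and 0.172, 0.988 and 3.12 CPM in Ler (-3.97, SE 0.80, adjusted p = 0.005). ZFP3, a zinc finger gene, had 4 reads in the 3 hybrid libraries, against 217 in C24 and 65 in Ler (-4.48, SE 1.36, adjusted p = 0.03). Its call was lost without C24 replicate 3 (adjusted p = 0.051), Ler replicate 3 (adjusted p = 0.075) or C24 x Ler replicate 1 (adjusted p = 0.11), 2 (adjusted p = 0.068) or 3 (adjusted p = 0.093).

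Members that differed between the C24B libraries were counted apart. Of the 36 tested members with C24B replicate 2 at least 2 times replicate 1, 4 were above the mid-parent and 16 below it, while of the other 123 members 38 were above and 12 below (15.5% and 11.5% of all genes tested). The split rests on C24B values that the rule also used, and the difference between the subsets was not tested. FLR1, a leucine-rich repeat protein gene of this kind, had 143 and 216 CPM in line 3 and 148 and 232 CPM in line 2, against 32.4 and 85.8 CPM in C24B. In the first stage FLR1 had between 15 and 19.2 CPM in the 3 hybrid libraries, 67.4, 43.2 and 45.8 CPM in C24, 110, 123 and 115 CPM in Ler NahG and 204, 170 and 168 CPM in Ler (hybrid below the mid-parent by -2.24, SE 0.18, adjusted p = 1.3e-05). The shoot apex and dividing tissue genes were low in the hybrid too. STM had 0.0885, 0.351 and 0.651 CPM in the hybrid, 26.4, 23.5 and 27.1 CPM in C24 and 9.36, 43.7 and 53.8 CPM in Ler. The 10 dividing tissue genes summed to 106, 135 and 133 CPM in the hybrid, 221, 217 and 260 CPM in C24 and 199, 296 and 320 CPM in Ler, and the 10 apex genes to 35.9, 37.3 and 50.0 CPM in the hybrid, 96.2, 87.0 and 101 CPM in C24 and 72.6, 170 and 197 CPM in Ler. The part of young tissue in the members' levels was not tested. Ler replicate 1 and Ler NahG replicate 2 were the low libraries of their groups for STM and for TUB1, a beta-tubulin member. TUB1 had 48.8, 11.1 and 54.5 CPM in Ler NahG, against 7.89, 57.3 and 51.9 CPM in Ler.

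**Figure D4:**
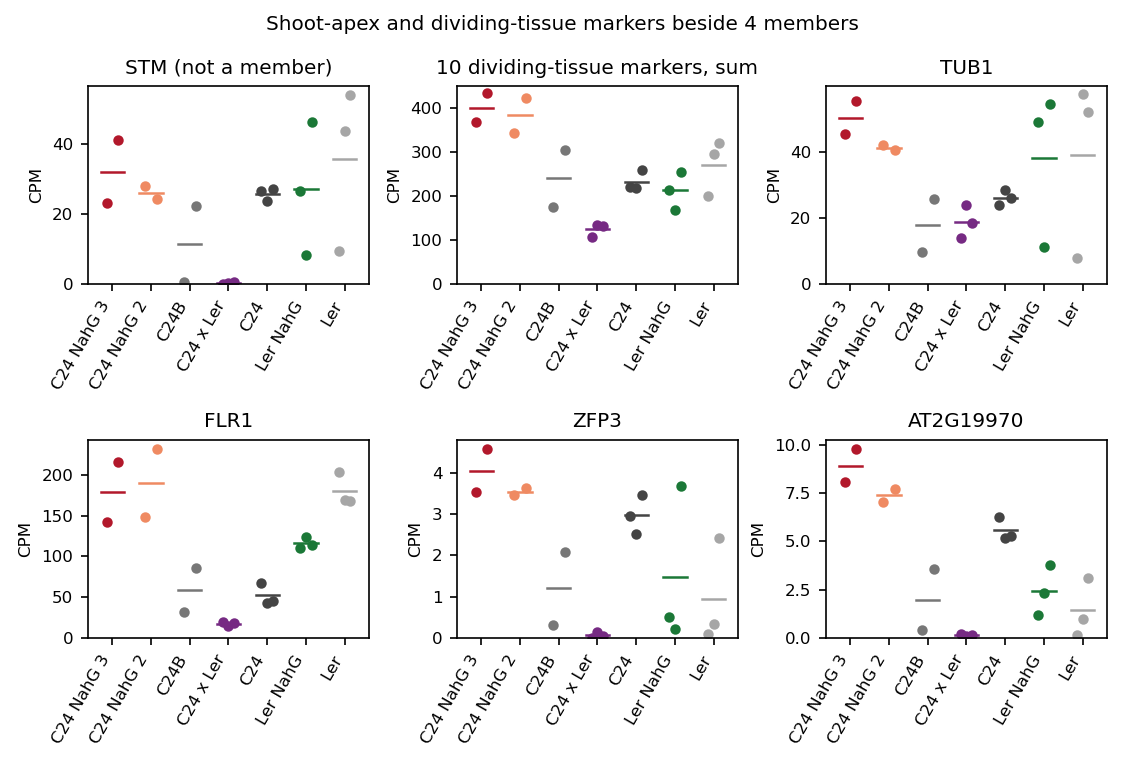
Level in CPM (y axis, linear, from 0) in every library of STM and the sum of 10 dividing-tissue genes, which are no members, and of the members TUB1, FLR1, ZFP3 and AT2G19970; points are libraries and lines are group means. C24B replicate 1 and the 3 hybrid libraries lie near 0 for STM, at 0.427 CPM and 0.0885 to 0.651 CPM, while C24B replicate 2 lies at 22.1 CPM.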

How the data were processed

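RNA from rosettes was sequenced in 18 libraries. The authors deposited raw read counts per gene. The submitters' processing notes name STAR 2.5.3, TAIR10 and DESeq2. How strand and gene models were handled in the counting is not given in the sources used here. Reads of overlapping or antisense genes therefore cannot be told apart. The 5 rows that name read classes and no gene were left out. CPM values were counts divided by the sum of gene rows. Tests used edgeR 4.0.16 (TMM, filterByExpr, quasi-likelihood F test, Benjamini-Hochberg over all genes tested) in R 4.3.3. The 12 first-stage libraries were fitted together, as were the 6 later-stage libraries. Adjusted p under 0.05 was called. The script recovered known changes in simulated counts. Values around a mid-parent are relative to the mean of the parents' log2 levels.

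Members, gene lists and tests were chosen with earlier results of these data known. Role groups were made after the members were known and carry no test of their own. The apex list was known to differ between the C24B libraries. Named members are those with the 15 largest ratios or 10 highest means, those on a list, those called in Ler NahG, the 6 largest called differences each way between C24 and Ler and from the mid-parent, and those next to the threshold. Others were chosen after their values were seen. Symbols and promoters come from the RefSeq TAIR10.1 annotation, in which all 161 members were found and 84 had a symbol. Alternatives were DESeq2 1.42.0, its size factors, no count filter, a replicate block, fits on the groups compared alone, and leaving out each library. Pools of plants, not single plants, are the replicates, and counting limits cover counting error only.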

Additional observations from a re-analysis of the deposited data

Results flagged for a closer look

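In 10 members all Ler NahG libraries lay below all Ler libraries, the opposite direction to that in C24 NahG against C24B, which the choice of members fixed (6.21% of the members, against 6.7% of all 16695 genes, so the number of such members is near that of all genes). The difference between the accessions was not tested. The highest Ler NahG library divided by the lowest Ler library was 0.368 for THI2.1, 0.689 for GRF7, 0.735 for FLR1, 0.753 for ST4B, 0.849 for BGLU18, 0.928 for AT3G06160, 0.941 for AT2G39560, 0.965 for AT2G35310, 0.974 for PGL5 and 0.997 for MNP. THI2.1 had 286 reads in Ler NahG, against 1585 in Ler. ST4B had 15 reads in Ler NahG, against 44 in Ler, so its ratio rests on few reads. Of these genes, THI2.1 alone passed the test in Ler.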

How the results depend on the processing

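The rule gave 161 members, 30 at a ratio of 2 and 183 to 2101 when a library was left out. A mean floor of 5 CPM gave 114 and a floor of 1 CPM gave 203. With CPM on TMM-scaled library sizes there were 140, of which 138 were among the 161, so part of the set depends on the scaling. Members higher in Ler NahG numbered 3, against 7 with DESeq2, 5 with no low-count filter, 0 with the groups compared alone and 0 to 6 when a library was left out. Members lower there numbered 1, against 0 with the replicate block, 0 with the groups compared alone and 0 to 1 when a library was left out. All genes called there numbered 120, against 271 with DESeq2, 21 with the groups compared alone and 45 to 151 when a library was left out. Leaving out a library gave 23 to 29 members higher and 46 to 58 lower in C24 than in Ler (7130 to 8591 genes in all), 33 to 45 above and 17 to 35 below the mid-parent (2810 to 6771 genes), 32 to 37 higher and 17 to 21 lower in the hybrid than in C24 (5578 to 6853 genes), and 27 to 34 higher and 29 to 46 lower in the hybrid than in Ler (3996 to 7608 genes). Genes called between the hybrid and Ler numbered 6149, against 3949 with the groups compared alone. Between the lines 0 genes were called, against 13 with DESeq2, 13 with no filter, 3 with the groups compared alone and 0 to 1 when a library was left out. Fewer libraries or fewer genes tested are part of these settings; otherwise the cause was not tested. At a ratio of 2 the promoter shares were 6.67% for CACGTG, 50% for TTGAC, 0% for TGACG, 0% for GCCGCC, 6.67% for CCGAC and 26.7% for AACGTG, over 30 members. Differences near 0 changed sign for JAL23 in Ler NahG against Ler (-0.577 to 0.04 when a library was left out) and for BGLU18 in the hybrid against the mid-parent (-0.291 to 0.114). The replicate numbers did not pair the samples: deviations of same-numbered libraries correlated between -0.18 and 0.47. With the replicate block, AT1G27030 (adjusted p = 0.06) and THI2.1 (adjusted p = 0.088) lost their calls in Ler NahG. At the depth of the first stage 3 reads equal 0.117 to 0.134 CPM, and lower levels cannot be told from 0.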
